A study of Homo sapiens with 30 samples.

Results

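The HOX genes of the 4 human clusters were followed across every group of an RNA-seq experiment on DNA methylation, CTCF and nuclear speckles in K562 and HCT116 cells. A gene was a member if the annotation listed it as protein-coding and its symbol was HOXA, HOXB, HOXC or HOXD followed by a number, and it was matched to the count tables by its Ensembl identifier. This gave 39 genes of 60664 in the tables, with 11 in HOXA (chromosome 7), 10 in HOXB (chromosome 17, 48528526 to 48728750, GRCh38), 9 in HOXC (chromosome 12, 53938831 to 54056030) and 9 in HOXD (chromosome 2, 176092721 to 176190907). The 30 libraries formed 10 groups of 3, each a triplicate of separate cultures. K562 is an established line from chronic myeloid leukemia and HCT116 an established line from colorectal carcinoma. Wild-type K562 and wild-type HCT116 cells received 10 µM DNMT1i, a selective inhibitor of the maintenance DNA methyltransferase DNMT1, or 0.1% DMSO, for 3 days. K562 cells of a single-cell clone in which the speckle proteins SON and SRRM2 both carry the dTAG degron received 500 nM dTAG-13, which depletes tagged proteins, or 0.1% DMSO, for 6 hours. HCT116 cells of a single-cell clone homozygous for a HaloTag fusion of CTCF, called HT-CTCF, were kept for 1 day in 10 µM DNMT1i or 0.1% DMSO, and each was run in the presence and in the absence of HaloPROTAC3, which depletes HaloTag-CTCF. Per the paper's methods, HaloPROTAC3 was given for some hours before DNMT1i or DMSO and kept on with them, so that cells had it for longer than 1 day. Every tagged group, controls included, carried its tag, and each tagged line was 1 clone.

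HOX proteins are homeodomain transcription factors that give cells along the body axis their positional identity, and within a cluster the low-numbered genes are generally used earlier and further forward than the high-numbered ones. They bind DNA together with TALE cofactors of the PBX and MEIS families. Their silence is maintained by Polycomb complexes and their activity by MLL-family methyltransferases, their promoters are rich in CpG, and CTCF sites within the clusters separate active from silent genes. HOX genes remain active in many adult tissues and tumors in a pattern typical of the tissue, and HOXA9 with its cofactor MEIS1 is a well-known driver of acute leukemia.

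Libraries held 16173008 to 21228534 reads assigned to genes in the wild-type and dTAG experiments and 4243092 to 9407430 in the HT-CTCF experiment, so that 3 counts, used here as the detection floor, stood for 0.141 to 0.185 CPM (counts scaled to the library's assigned total) in the first set and 0.319 to 0.707 CPM in the second. Marker genes matched the labelled lines. Of 10 K562 markers 9 were at 1 CPM or more in every K562 group, where they summed to 586.9 to 861.83 CPM, and 1 of 10 was in the HCT116 and HT-CTCF groups, where they summed to 1.8 to 5.51 CPM. Of 10 HCT116 markers 6 or 7 were at 1 CPM or more in HCT116 and HT-CTCF groups (3093.86 to 4513.36 CPM in sum), against 4 to 6 in K562 groups (432.04 to 1086.21 CPM). The degron treatments remove protein, and DNMT1i acts on protein, so the RNA of their targets does not check them: SON had 803 to 860 CPM under dTAG-13 and 725 to 786 CPM in DMSO, SRRM2 had 1110 to 1160 CPM under dTAG-13 and 776 to 928 CPM in DMSO, and CTCF had 189 to 214 CPM in HT-CTCF groups with HaloPROTAC3 and 129 to 136 CPM in those without. DNMT1 RNA was at 200 to 414 CPM in all 30 libraries.

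The members sit close together and share transcribed bases. In HOXA 6 genes overlapped another annotated gene on the same strand and 10 overlapped one on the opposite strand, and the numbers were 7 and 6 in HOXB, 6 and 5 in HOXC, and 5 and 4 in HOXD. Between 3.57% and 4.29% of the reads in a library were left out by the authors' counting as ambiguous between genes, and no source used here states its strand setting, so that reads of a HOX gene and of its antisense partner may not be separable. In bulk RNA, fewer cells expressing a gene and less of its RNA per cell cannot be told apart.

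In untreated cells the lines used different clusters. In DMSO the HOXA genes together reached 0.219 ± 0.037 CPM in K562 and 110 ± 1.49 CPM in HCT116 (SD, n = 3 each), and HOXD genes reached 0.056 ± 0.061 CPM in K562 and 9.96 ± 1.09 CPM in HCT116. The order was the other way for HOXB, whose genes summed to 388 ± 5.59 CPM in K562 and 183 ± 3.19 CPM in HCT116. HOXC genes summed to 9.75 ± 0.14 CPM in K562 and 15.6 ± 0.63 CPM in HCT116.

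**Figure D1:**
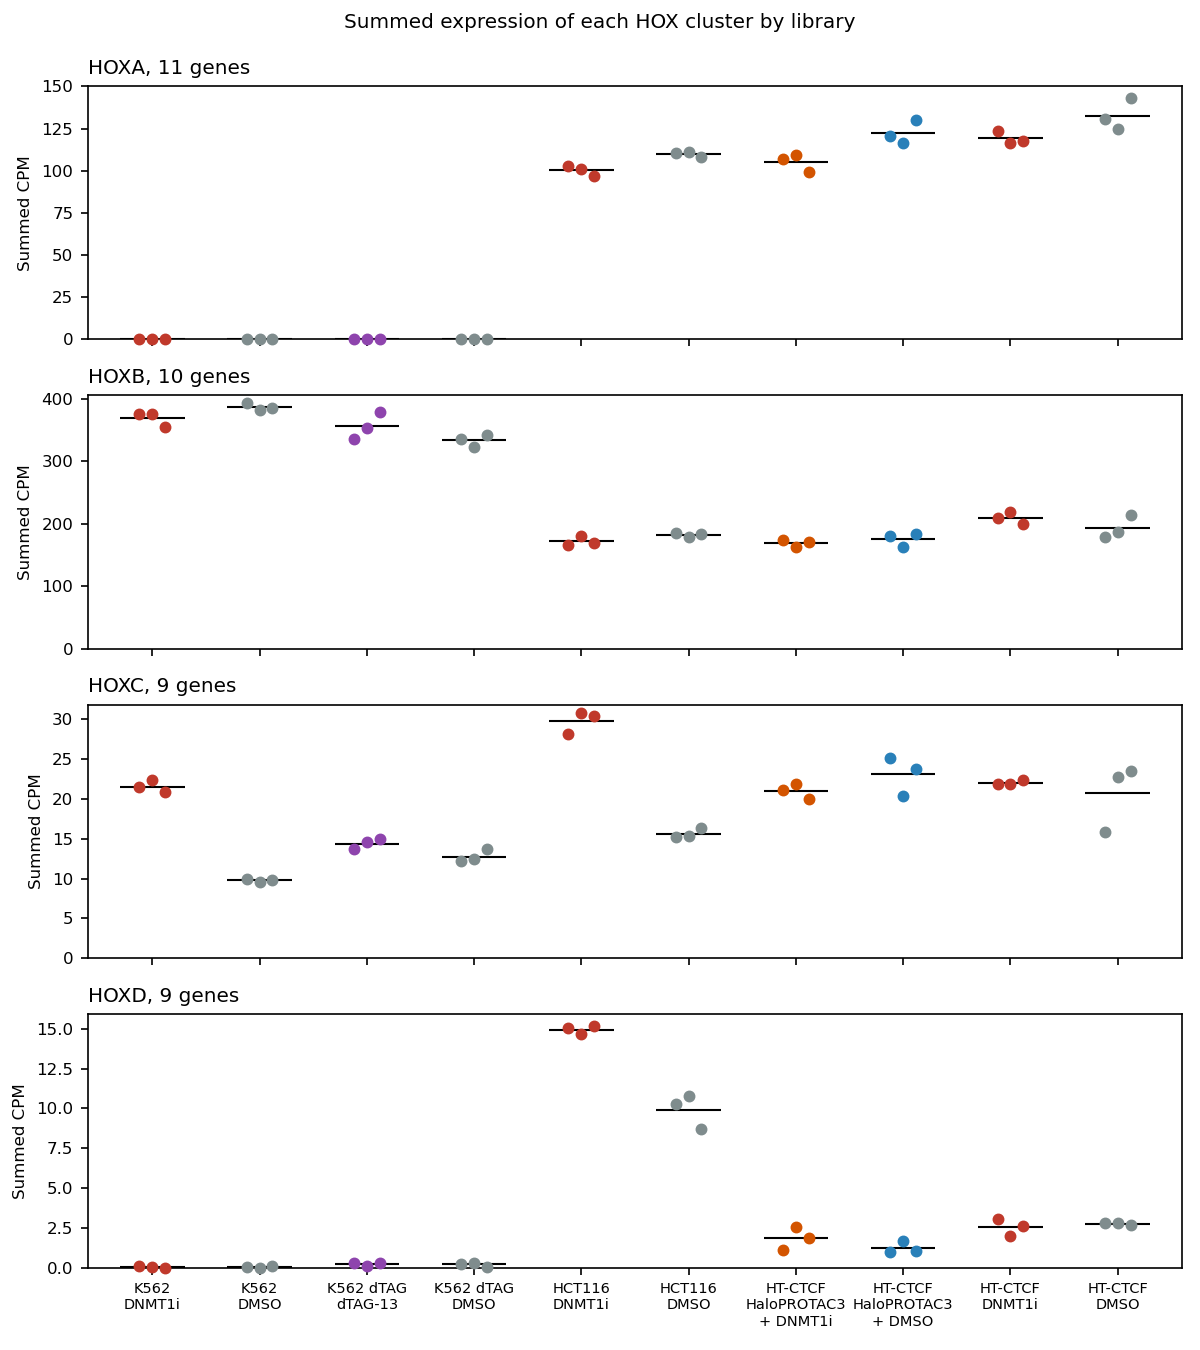
Summed CPM of each HOX cluster (1 panel per cluster, y axis in CPM) in each library of the 10 groups, with points for the 3 libraries of a group and a line at their mean, treated groups left of their controls. HOXA and HOXD lie near 0 in all K562 groups, and HOXC is higher under DNMT1i in both wild-type lines, with 20.9 to 22.3 CPM against 9.61 to 9.89 CPM in K562.

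A single gene made up most of the HOXB signal of K562. HOXB9, a gene of thoracic identity, had 268, 266 and 271 CPM in the DMSO libraries of K562 and 87.9, 85.7 and 79.8 CPM in those of HCT116, which was 69.2% of the HOXB sum in K562 and 46.2% in HCT116. HOXB4, known for expanding blood stem cells, had 38.5, 37.4 and 39.2 CPM in K562 and 9.28, 7.39 and 9.13 CPM in HCT116. HOXB2, a hindbrain gene, had 33.2, 30.4 and 27.9 CPM in K562 and 0.634, 0.482 and 0.451 CPM in HCT116. All 3 were higher in every K562 library than in any HCT116 library. On the scale of CPM per kilobase of exon, which allows levels to be set side by side between genes, the mean level of HOXB9 in K562 was 103.8 ± 0.995, followed by HOXB4 at 19.2 ± 0.454, HOXB2 at 12.4 ± 1.07 and HOXB7 at 8.03 ± 1.11 (SD, n = 3). HOXB3, HOXB8 and HOXC9 came next at 3.5 ± 0.363, 3.38 ± 0.153 and 3.26 ± 0.157 CPM per kilobase, values that did not differ beyond their spread.

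Wild-type HCT116 used a broader set. Its highest mean level per kilobase was again HOXB9, at 32.7 ± 1.62 CPM per kilobase, followed by HOXB7 at 19.3 ± 0.53, HOXA9 at 13.1 ± 0.714, HOXB8 at 11.7 ± 1.17 and HOXA7 at 9.06 ± 0.621 (SD, n = 3). HOXA9 and HOXB8 overlapped within their spread, whereas HOXA7 lay below both. HOXA9 had 42, 39.6 and 37.6 CPM in the DMSO libraries of HCT116, against 0.0478, 0 and 0 CPM in those of K562, which was 1 count in all. HOXA7, a gene of thoracic identity, had 22.3, 23.1 and 20.2 CPM in HCT116, against 1 count in all 3 DMSO libraries of K562. HOXA10, which patterns the uterus and lumbar spine, had 16.9, 19.3 and 19.3 CPM in HCT116, against 2 counts in K562. HOXA genes were thus at or near the detection floor in K562, where no HOXA gene reached 1 CPM in any group. In the HOXB cluster HOXB7 had 29.6, 29.8 and 28.3 CPM in HCT116, with 13.3, 10.3 and 13.1 CPM in K562, and HOXB8 had 28.1, 25.3 and 30.9 CPM in HCT116, with 8.36, 8.32 and 7.71 CPM in K562. The HOXD sum of HCT116 in DMSO was almost wholly HOXD8, a gene of the trunk, which made up 96.5% of it with 10, 10.3 and 8.45 CPM and had no count in the DMSO libraries of K562.

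The difference between the lines was tested over all genes with edgeR's quasi-likelihood test, which was used throughout, with Benjamini-Hochberg adjustment over every gene tested and a call at adjusted p below 0.05 and an absolute log2 fold change above 0.5. Of the 39 members 31 passed the filter on low counts, and 5 were called higher in K562 and 20 lower, on a background in which 65.5% of all genes tested were called (31% higher, 34.5% lower). Of the 20 lower, 13 had no K562 library past the low-count cutoff and were tested only through their HCT116 level, so that the count of lower genes is a description. The higher ones were HOXB2 (log2 fold change 5.84 ± 0.16 SE, adjusted p = 2.89e-17), HOXB3 (2.16 ± 0.12, adjusted p = 2.51e-12), HOXB4 (2.14 ± 0.10, adjusted p = 2.28e-13), HOXB9 (1.65 ± 0.08, adjusted p = 2.28e-13) and HOXC8 (0.86 ± 0.24, adjusted p = 0.0033). Of these HOXB2 had only 1 HCT116 DMSO library past the low-count cutoff, so that its HCT116 DMSO group would not have passed the filter alone. Along the HOXB cluster the calls alternated: HOXB2, HOXB3 and HOXB4 at one end were higher, HOXB5, HOXB6, HOXB7 and HOXB8 lower, HOXB9 higher and HOXB13 lower. All 10 HOXA genes tested were lower, as were HOXC4, HOXC6, HOXC10, HOXC13 and HOXD8. Where no K562 library had a count the difference is a bound from the floor of 3 counts over the group: HOXD8 was at least 175-fold lower, HOXA3 at least 114-fold, HOXB13, a prostate and hindgut gene, at least 106-fold, HOXA5 at least 103-fold, HOXA11 at least 74.1-fold and HOXA6 at least 36.2-fold. HOXA9 was at a ratio of 0.000461 (95% exact interval 1.17e-05 to 0.00257) and HOXA10 at 0.00197 (0.000239 to 0.00715), where intervals cover counting error only. HOXC9, which sets thoracic motor neuron identity, was called in neither direction (log2 fold change -0.04 ± 0.13, adjusted p = 0.78), with 5.35, 5.22 and 5.72 CPM in K562 and 5.36, 5.41 and 5.8 CPM in HCT116. Lines and their tissues of origin cannot be told apart in this comparison.

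**Figure D2:**
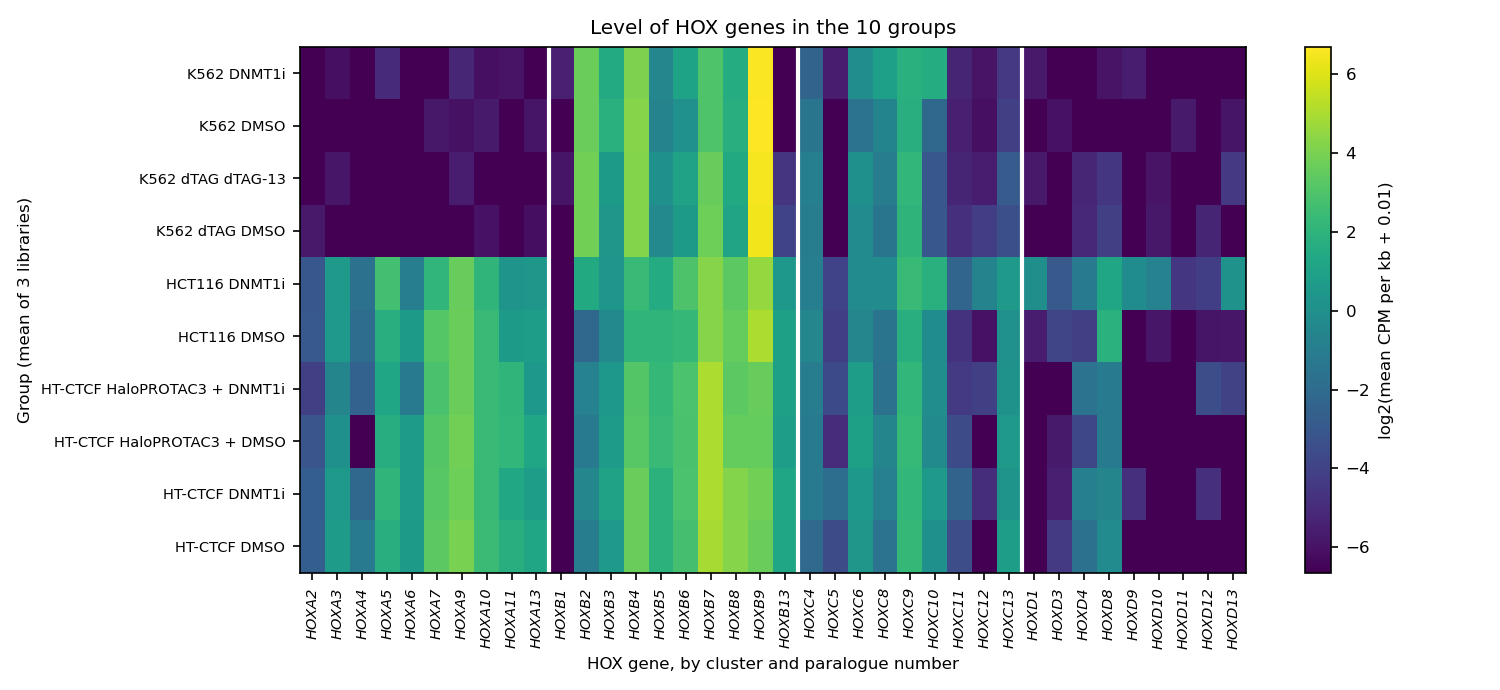
Mean level of HOX genes (x axis, by cluster and paralogue number, white lines between clusters) in each of the 10 groups (y axis, treated above control), colored by log2(mean CPM per kilobase + 0.01), with dark for low and yellow for high. The HOXA and HOXD genes are dark in the K562 groups, and HOXB9 is the brightest gene of both wild-type lines in DMSO, at 103.8 CPM per kilobase in K562 and 32.7 in HCT116.

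DNMT1i raised 4 HOX genes in K562, and 3 of them lie in HOXC. Of the 39 members 13 passed the low-count filter (8 HOXB and 5 HOXC genes), and 4 were called higher and 1 lower, on a background of 7.15% of all genes called (5.72% higher, 1.44% lower). The median log2 fold change was 0.03 over the members tested and 0.00 over all genes. Markers of other cells were measured beside them: 10 HCT116 markers summed to 537.26 to 640.65 CPM under DNMT1i and 432.04 to 541.28 CPM in DMSO, with 6 of 10 at 1 CPM or more under DNMT1i, 4 of 10 in DMSO and 1 at 0 in both, and 3 of the 6 tested were called higher. The 8 fibroblast markers summed to 3.15 to 4.38 CPM under DNMT1i and 2.23 to 2.53 CPM in DMSO, with 1 at 1 CPM or more and 2 at 0 in both groups. The part of these markers in the HOX result was not tested. HOXC10, a gene of lumbar and hindlimb identity, had 6.84, 7.87 and 7.07 CPM under DNMT1i, against 0.717, 0.528 and 0.241 CPM in DMSO (log2 fold change 3.77 ± 0.25 SE, adjusted p = 3.52e-06). HOXC8, a gene of brachial and thoracic identity, had 4.44, 4.44 and 4.37 CPM under DNMT1i, against 1.29, 1.7 and 1.69 CPM in DMSO (1.47 ± 0.18, adjusted p = 0.000414). HOXC6, which acts in the thorax and mammary gland, had 3.37, 3.55 and 2.8 CPM under DNMT1i, against 1.34, 1.06 and 0.963 CPM in DMSO (1.47 ± 0.21, adjusted p = 0.000979). In all 3 genes every treated library was above every control library, and HOXC10 became the leading HOXC gene, at 33.7% of the cluster's sum under DNMT1i. HOXB6, a gene active in early blood progenitors, had 6.18, 5.62 and 4.83 CPM under DNMT1i, against 3.06, 2.7 and 2.65 CPM in DMSO (0.94 ± 0.16, adjusted p = 0.00317). These 4 calls held under all 11 alternatives tried, although HOXC10 had only 1 DMSO library past the low-count cutoff and passed the filter through its DNMT1i libraries. HOXC4, which acts in B cells, was the gene called lower, with 0.511, 0.532 and 0.458 CPM under DNMT1i, against 1.1, 0.938 and 0.903 CPM in DMSO (-1.01 ± 0.28, adjusted p = 0.0498). That call was lost under 9 of 11 alternatives, among them the omission of any DNMT1i library or of DMSO replicate 1 or 2, and its adjusted p over the alternatives was 0.033 to 0.318. HOXC4 had no DNMT1i library past the low-count cutoff and was tested through its DMSO level alone, so that its call is a description.

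The highly expressed genes of K562 were not called. HOXB9 had 257, 264 and 245 CPM under DNMT1i, against 268, 266 and 271 CPM in DMSO (log2 fold change -0.11 ± 0.07, adjusted p = 0.416), and it was 69.2% of the HOXB sum in both groups. HOXB4 had 33.7, 35 and 32.7 CPM under DNMT1i and 38.5, 37.4 and 39.2 CPM in DMSO, which do not overlap but did not pass adjustment (-0.22 ± 0.09, adjusted p = 0.177). HOXB2 had 35, 30.2 and 31.2 CPM under DNMT1i and 33.2, 30.4 and 27.9 CPM in DMSO, which overlap. HOXC9, between HOXC10 and HOXC8 on the chromosome, had 6.08, 5.8 and 6 CPM under DNMT1i and 5.35, 5.22 and 5.72 CPM in DMSO (0.10 ± 0.13, adjusted p = 0.73). The rise in HOXC was therefore not shared by all neighbors: of the 5 HOXC genes tested 3 rose and HOXC9 was not called, while the lower call of HOXC4 is a description. The other tested HOXB genes had log2 fold changes of -0.34 (HOXB3) to 0.09 (HOXB5) and none was called. The 26 members that were not tested had at most 6 counts in either group, and no HOXA or HOXD gene was among those tested.

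In HCT116 HOX genes were called in both directions under DNMT1i. Of the 39 members 31 passed the filter, and 13 were called higher and 7 lower, on a background of 39.2% of all genes called (23.6% higher, 15.6% lower). The median log2 fold change was 0.13 over the members tested and 0.02 over all genes. By cluster, 2 HOXA genes rose and 2 fell of 10 tested, 3 HOXB genes rose and 3 fell of 9, 4 HOXC genes rose and 1 fell of 7, and 4 HOXD genes rose and 1 fell of 5. Of the 13 higher, 5 (HOXC12, HOXD1, HOXD9, HOXD10 and HOXD13) had no DMSO library past the low-count cutoff, so that they could be tested only where they were high, and their calls, which include all 4 HOXD rises, and the median are a description. Without TMM scaling, that is with library size only, the same 13 members were counted higher and 3 lower, because HOXB5, HOXB9, HOXB13 and HOXC4 dropped out, and the median log2 fold change of all genes became 0.13. Beside these changes, genes that mark fibroblasts moved as well: the 8 of them summed to 25.75 to 36.37 CPM under DNMT1i and 9.17 to 11.3 CPM in DMSO, with 2 of 8 at 1 CPM or more under DNMT1i, 1 of 8 in DMSO and 1 at 0 in both groups. Their part in the HOX result was not tested.

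Several HOXD genes with at most 1 count in DMSO were counted under DNMT1i. HOXD13, the digit gene at the far end of the cluster, had 2.93, 2.64 and 2.51 CPM under DNMT1i, against 0, 0 and 0.0564 CPM in DMSO, or 153 counts against 1. HOXD10, a limb gene, had 1.64, 1.7 and 1.01 CPM under DNMT1i, against 0.0576, 0 and 0 CPM in DMSO, or 83 counts against 1. HOXD9, its neighbor, had 1.87, 1.7 and 1.44 CPM under DNMT1i and no count in DMSO. In each of them all treated libraries were above all controls, and the controls were at or under the floor. HOXD1, at the opposite end of the cluster, had 1.7, 1.88 and 2.03 CPM under DNMT1i, against 0.0576, 0 and 0 CPM in DMSO, or 107 counts against 1. The ratio of DNMT1i to DMSO was 144 for HOXD13 (95% exact interval 25.5 to 5740), 101 for HOXD1 (17.7 to 4020) and 78.3 for HOXD10 (13.7 to 3130), and HOXD9 was at least 29.9-fold higher. These 4 genes passed the filter through the DNMT1i libraries alone, and no p-value is given for them. HOXD8 moved the other way, with 6.27, 5.28 and 6.84 CPM under DNMT1i, against 10, 10.3 and 8.45 CPM in DMSO (log2 fold change -0.76 ± 0.14 SE, adjusted p = 0.000112), and its share of the HOXD sum was 41.0% under DNMT1i and 96.5% in DMSO. HOXD4 had 30 counts under DNMT1i and 3 in DMSO (ratio 9.43, 2.93 to 48.3), HOXD12 had 7 and 1, HOXD11 had 4 and 0, and all 3, like HOXD3, stayed under the filter. HOXD4 was called higher without that filter and by DESeq2. HOXD11 overlaps HOXD10 on the same strand, and its exon parts had 21, 6 and 5 counts under DNMT1i and 0 in DMSO, so that its gene count may leave out ambiguous reads.

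DNMT1 methylates the cytosine of CpG, so the 250 bases before the start in the RefSeq table are printed here, 5′ to 3′ on the strand of the gene, with every CpG in capitals, for 3 HOXD genes that rose, for HOXD8, which fell, and for HOXA6, the HOXA gene that fell the most. They come from RefSeq (GRCh38.p14) at chr2:176092471-176092720 for HOXD13, chr2:176116528-176116777 for HOXD10, chr2:176188418-176188667 for HOXD1 and chr2:176129455-176129704 for HOXD8, all on the plus strand, and at chr7:27147775-27148024 on the minus strand for HOXA6. In the annotation used for the counts HOXD10 and HOXA6 also have transcripts that start further upstream, so that their windows lie inside the annotated genes, and the HOXD8 window runs 11 bases into its gene.
HOXD13: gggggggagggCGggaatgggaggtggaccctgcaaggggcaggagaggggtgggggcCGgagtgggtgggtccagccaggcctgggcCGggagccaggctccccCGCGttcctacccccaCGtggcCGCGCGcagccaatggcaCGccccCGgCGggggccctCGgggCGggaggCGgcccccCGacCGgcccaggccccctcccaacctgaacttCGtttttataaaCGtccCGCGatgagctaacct
HOXD10: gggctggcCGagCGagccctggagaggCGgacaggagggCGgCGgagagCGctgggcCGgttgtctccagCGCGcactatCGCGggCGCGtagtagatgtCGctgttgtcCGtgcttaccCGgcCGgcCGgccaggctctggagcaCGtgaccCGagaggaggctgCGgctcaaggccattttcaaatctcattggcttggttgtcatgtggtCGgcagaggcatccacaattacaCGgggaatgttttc
HOXD1: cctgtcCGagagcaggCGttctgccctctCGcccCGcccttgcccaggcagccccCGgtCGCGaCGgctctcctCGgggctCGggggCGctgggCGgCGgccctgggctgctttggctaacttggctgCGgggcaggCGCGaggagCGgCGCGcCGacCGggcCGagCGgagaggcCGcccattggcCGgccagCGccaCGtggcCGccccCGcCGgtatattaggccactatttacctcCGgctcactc
HOXD8: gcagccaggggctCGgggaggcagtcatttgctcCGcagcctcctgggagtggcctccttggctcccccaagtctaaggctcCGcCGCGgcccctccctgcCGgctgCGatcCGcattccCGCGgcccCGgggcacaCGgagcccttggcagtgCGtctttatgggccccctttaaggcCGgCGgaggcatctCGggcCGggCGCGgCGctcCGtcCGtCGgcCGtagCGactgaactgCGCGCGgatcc
HOXA6: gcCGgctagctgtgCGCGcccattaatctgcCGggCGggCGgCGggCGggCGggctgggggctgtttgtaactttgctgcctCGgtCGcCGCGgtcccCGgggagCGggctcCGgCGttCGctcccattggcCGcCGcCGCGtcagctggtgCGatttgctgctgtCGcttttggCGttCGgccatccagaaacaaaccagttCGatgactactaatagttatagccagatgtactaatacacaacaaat

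The genes that rose and the genes that fell both had CpG-rich windows. CG occurred 21 times in the window of HOXD13, 23 times in that of HOXD10, 31 times in that of HOXD1, 28 times in that of HOXD8 and 27 times in that of HOXA6, and at least as many CG were found in 30.2%, 25.8%, 10.9%, 15.9% and 17.7% of all 35116 windows of the RefSeq table, in the same order of genes. The table held 27 windows for 20 of the HOX genes, with a median of 19 CG per window (0 to 40, the highest in that of HOXA13) against a median of 11 over all windows. The CTCF core motif, searched on both strands, was in 0 of the HOX windows and in 0.427% of all windows. A shorter pattern, AGGNGGC, which resembles the end of that core but does not set the same letters, was in 11 HOX windows (40.7%, against 31.5% of all windows). Among them were those of HOXD13, HOXD10 and HOXD8. Several of the matched windows belong to HOXA3, and HOXC4 and HOXC5 share a window, so that the HOX windows are not independent. A PBX-HOX site, TGATTNAT, occurred in 2 windows, of HOXA2 and HOXD11 (7.41%, against 2.48% of all windows). These matches are letters in a window and say nothing of binding or methylation, which were not analyzed here.

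HOXC rose in HCT116 too. HOXC10 had 8.49, 8.76 and 8.01 CPM under DNMT1i, against 2.08, 1.98 and 2.37 CPM in DMSO (log2 fold change 1.87 ± 0.15 SE, adjusted p = 2.79e-09). HOXC12, a gene of the hair follicle in mice, had 1.82, 2.26 and 1.87 CPM under DNMT1i, against 0, 0.0535 and 0 CPM in DMSO, a ratio of 107 (18.9 to 4280). It too passed the filter through its treated libraries alone. HOXC8 had 2.17, 1.88 and 2.19 CPM under DNMT1i, against 0.692, 0.857 and 0.958 CPM in DMSO (1.20 ± 0.25, adjusted p = 0.000339). HOXC9 had 8.14, 9.23 and 8.92 CPM under DNMT1i, against 5.36, 5.41 and 5.8 CPM in DMSO (0.56 ± 0.13, adjusted p = 0.000798). The treated and control libraries of these 4 genes did not overlap. HOXC6 had 2.87, 2.87 and 2.99 CPM under DNMT1i and 2.54, 2.52 and 2.31 CPM in DMSO (0.14 ± 0.18, adjusted p = 0.525), and HOXC13, the hair and nail gene, had 2.69, 3.96 and 3.74 CPM under DNMT1i and 2.31, 2.46 and 2.82 CPM in DMSO (0.36 ± 0.19, adjusted p = 0.111). HOXC4 was called lower (-0.58 ± 0.22, adjusted p = 0.0276), a call lost under 7 of 11 alternatives with adjusted p of 0.0317 to 0.193, among them the omission of DNMT1i replicate 2 or 3 or of DMSO replicate 1 or 2. HOXC11 had under 1.1 CPM in all 6 libraries and was not tested, but it was called higher without the low-count filter and by DESeq2.

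**Figure D3:**
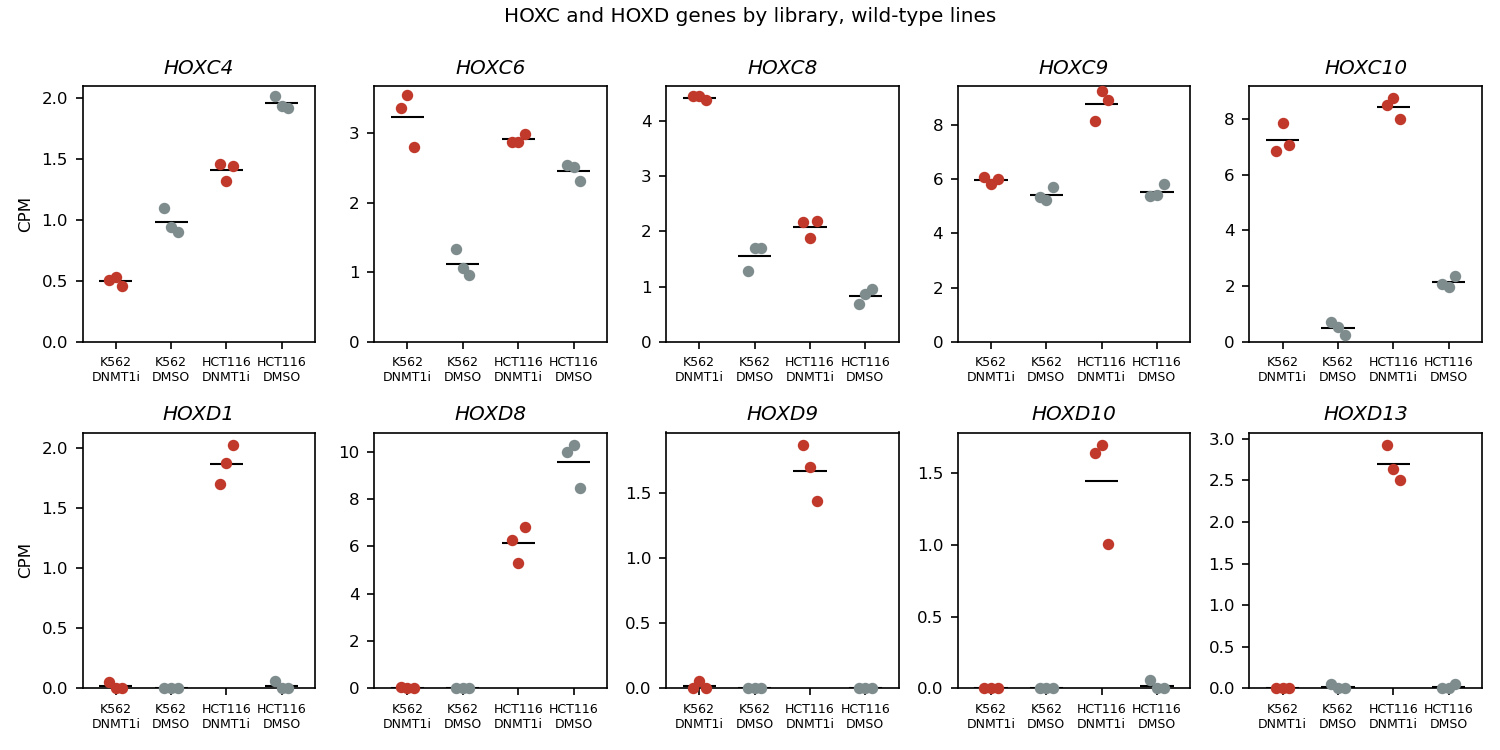
CPM in each library (points, y axis) of HOXC and HOXD genes under DNMT1i (left in each pair) and DMSO (right) in K562 and HCT116. HOXC10 is higher under DNMT1i in both lines, and HOXD13, HOXD10, HOXD9 and HOXD1 leave the floor in HCT116 under DNMT1i while HOXD8 is lower.

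Within HOXB and HOXA genes moved in both directions in HCT116. HOXB2 had 6.79, 6.88 and 6.3 CPM under DNMT1i, against 0.634, 0.482 and 0.451 CPM in DMSO (log2 fold change 3.55 ± 0.22 SE, adjusted p = 3.06e-11). Only 1 DMSO library of HOXB2 was past the low-count cutoff, so that it passed the filter through its DNMT1i libraries. HOXA5, a lung and cervical gene, had 10.9, 11.9 and 11.5 CPM under DNMT1i, against 5.82, 5.03 and 6.2 CPM in DMSO (0.90 ± 0.12, adjusted p = 3e-06). Both were higher in every treated library than in any control library and were called higher under every alternative tried. HOXB3 rose by 0.60 ± 0.13 on the log2 scale (adjusted p = 0.000332) and HOXB6 by 0.63 ± 0.12 (adjusted p = 0.000118), and HOXB6 fell under the size limit, at 0.49, when DNMT1i replicate 2 was omitted.

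Lower were genes in the middle of HOXA and, in HOXB, HOXB5, HOXB9 and HOXB13. HOXA7 had 11.1, 11.3 and 9.19 CPM under DNMT1i, against 22.3, 23.1 and 20.2 CPM in DMSO (log2 fold change -1.16 ± 0.11 SE, adjusted p = 3.02e-08). HOXA6, its neighbor, had 0.761, 0.565 and 0.641 CPM under DNMT1i, against 1.79, 1.71 and 2.48 CPM in DMSO (-1.71 ± 0.27, adjusted p = 1.74e-05). HOXA5, HOXA6 and HOXA7 are consecutive genes, of which HOXA5 was called higher and HOXA6 and HOXA7 lower. On the other side of HOXA5, HOXA4 and HOXA3 were called in neither direction. HOXB9 had 57.4, 61.4 and 67.4 CPM under DNMT1i, against 87.9, 85.7 and 79.8 CPM in DMSO (-0.55 ± 0.08, adjusted p = 8.09e-06). HOXB5 (-0.60 ± 0.14, adjusted p = 0.00102) and HOXB13 (-0.59 ± 0.16, adjusted p = 0.00428) were also called lower, the second not without DMSO replicate 3. HOXA9, HOXA10, HOXA11, HOXA13 and HOXB8 had adjusted p below 0.05 but log2 fold changes of -0.47 to -0.21, inside the size limit. For HOXA9 the values were 39.1, 34.3 and 37.3 CPM under DNMT1i and 42, 39.6 and 37.6 CPM in DMSO. HOXA10 had 16, 16 and 14.8 CPM under DNMT1i and 16.9, 19.3 and 19.3 CPM in DMSO, while HOXB7 had 30.1, 29.3 and 28.9 CPM and 29.6, 29.8 and 28.3 CPM in the same groups. HOXA3, HOXA4 and HOXB4 were not called either, HOXA2 and HOXC5 were under the filter, and HOXB1 had no count in any HCT116 library.

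**Figure D4:**
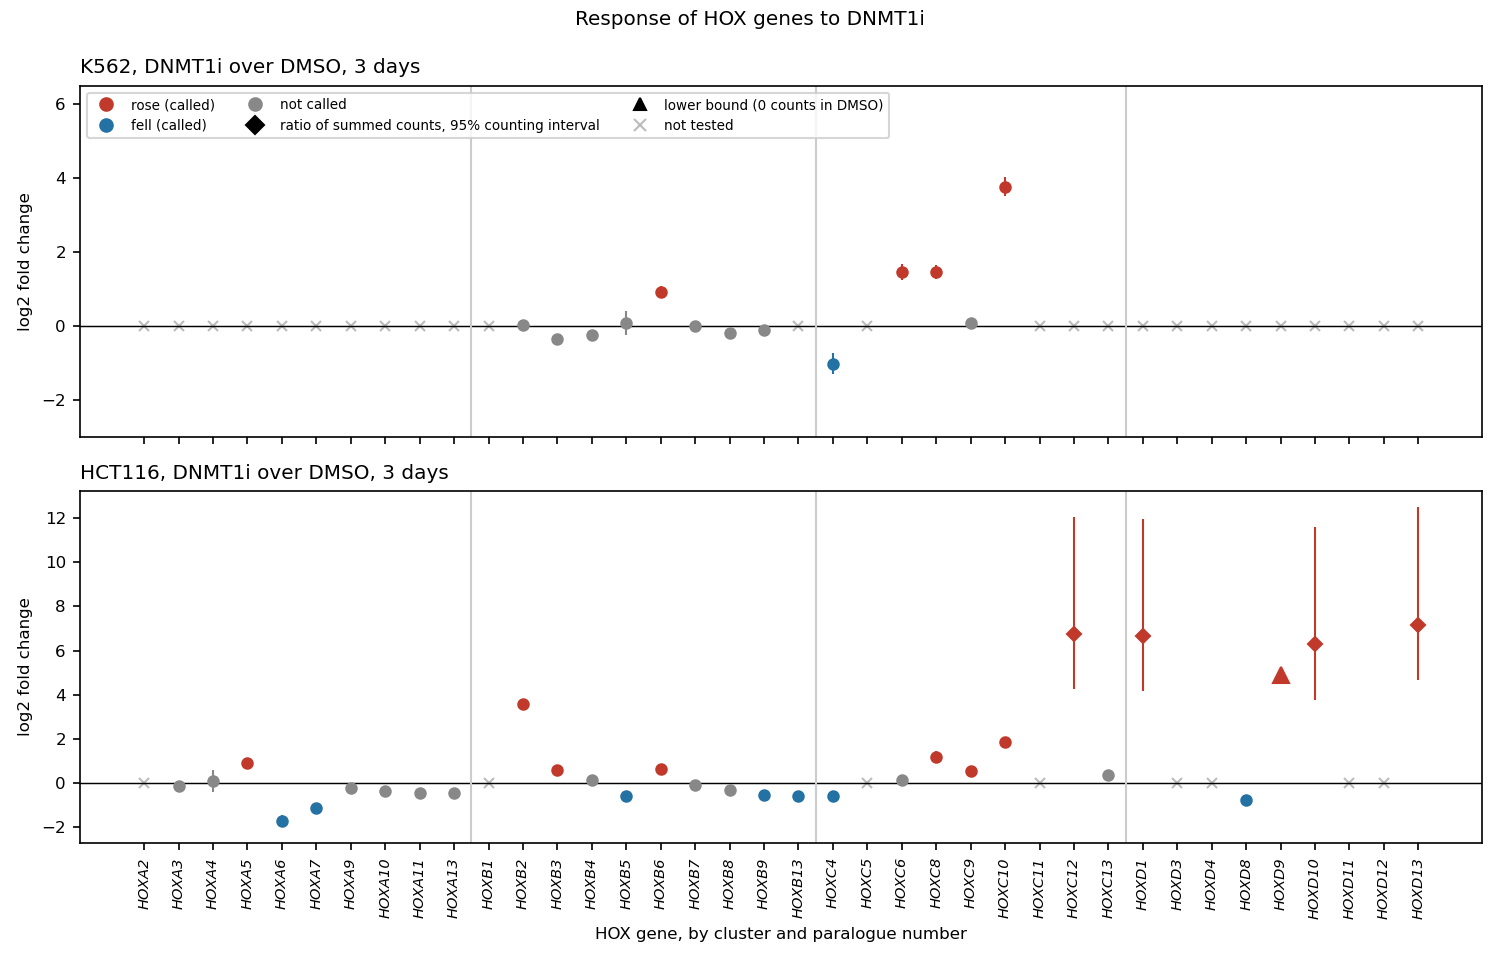
Log2 fold change of DNMT1i over DMSO (y axis, a scale of its own in each panel) of HOX genes (x axis, by cluster and paralogue number) in K562 (top) and HCT116 (bottom), in red where called higher, blue where called lower and gray where not called, with crosses at 0 for genes not tested. Circles are fitted values with their standard error, diamonds are ratios of summed counts with 95% counting intervals and the triangle is a lower bound. In HCT116 HOXA5 lies above 0 and HOXA6 and HOXA7 below it.

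The counts in single exon parts told whether a change ran along the whole gene. The authors also deposited counts of 266 non-overlapping exon parts (bins) of these genes for the wild-type and dTAG libraries, in which a read that spans bins counts in each, so they are given as sums over 3 libraries with no test. For HOXC10 all 7 bins with 10 counts or more were higher under DNMT1i in both lines. Its last exon (chromosome 12, 53989169 to 53990279) had 498 counts under DNMT1i and 35 in DMSO in K562, and 610 and 139 in HCT116, while the 5 bins of its upstream exons (between 53985065 and 53986380) summed to 109 and 11 in K562 and 190 and 60 in HCT116. A bin just downstream (53986430 to 53986686), which is the first exon of 1 annotated alternative transcript, had 32 counts under DNMT1i and 1 in DMSO in K562 and 20 and 0 in HCT116. HOXB6 differed along its length: its 6 gene-proximal bins (chromosome 17, 48595751 to 48598260) had 441 counts under DNMT1i and 213 in DMSO in K562 and 1678 and 947 in HCT116, while its 3 distal upstream bins (48603715 to 48604992) had 16 and 24 in K562 and 81 and 79 in HCT116. The change in HOXB6 was thus counted in the proximal exons. In HCT116 HOXB2 had 5 of 5 such bins higher, whereas HOXA6 and HOXA7 each had 5 of 5 lower and HOXD8 had 1 higher and 8 lower. For HOXB3, a long gene that overlaps its neighbors, 15 bins were higher and 2 lower under DNMT1i in HCT116, against 3 higher and 18 lower in K562.

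Responses to DNMT1i were then compared between the lines with an interaction term over both experiments. Of 31 members tested the difference was called for 6, on a background of 24.6% of all genes called, with 2 higher (background 11%) and 4 lower (13.6%) in K562 relative to HCT116. HOXC10 responded more in K562 than in HCT116, by 1.91 ± 0.31 on the log2 scale (adjusted p = 0.000102), although its CPM under DNMT1i was close in the lines, at 6.84 to 7.87 in K562 and 8.01 to 8.76 in HCT116, and its DMSO level was lower in K562. HOXC6 also responded more in K562, by 1.34 ± 0.27 (adjusted p = 0.00086). HOXB2 (-3.51 ± 0.22, adjusted p = 4.28e-10) and HOXB3 (-0.94 ± 0.17, adjusted p = 0.000322) responded more in HCT116, and both were higher in untreated K562 than in untreated HCT116. Under DNMT1i HOXB2 in HCT116, at 6.3 to 6.88 CPM, was still below the 30.2 to 35 CPM of K562. HOXD13 was called as well, but it passed the low-count filter through its HCT116 DNMT1i libraries alone. Its place among the 4 lower is therefore a description, and no p-value is given. Its K562 libraries held 0 counts under DNMT1i and 1 in DMSO, so that its fitted size is no bound, and it was not called without K562 DMSO replicate 1. HOXC8 rose in both lines with no called difference (0.29 ± 0.31, adjusted p = 0.534), and so did HOXB6 (0.32 ± 0.20, adjusted p = 0.258). HOXC12, HOXD1, HOXD9 and HOXD10 had at most 1 count in any K562 library and also passed the filter through their HCT116 DNMT1i libraries alone. The difference was not called for them but was by DESeq2 for all 4, which is a description.

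After 6 hours of dTAG-13 in the line with tagged SON and SRRM2, the scaffold proteins of speckles, no HOX gene was called without the replicate block. Of 39 members 12 were tested and 0 were called at the smaller limit of 0.25 on the log2 scale used for this comparison, on a background of 4.63% of all genes called (1.56% higher, 3.07% lower), with 2 at an unadjusted p under 0.05 and 0 called by DESeq2. The median log2 fold change was 0.20 over the members tested and -0.01 over all genes. HOXB9 had 226, 245 and 249 CPM under dTAG-13 and 222, 216 and 224 CPM in DMSO (0.12 ± 0.06, adjusted p = 0.305). HOXB4 had 33.2, 32.7 and 46.7 CPM under dTAG-13 and 35.9, 34.4 and 40.5 CPM in DMSO, and HOXB2 had 34, 35.4 and 36.4 CPM under dTAG-13 and 36.5, 35.4 and 34.3 CPM in DMSO, so that both overlapped. HOXB6 had 5.47, 4.78 and 5.53 CPM under dTAG-13 and 4.03, 3.65 and 4.35 CPM in DMSO, which do not overlap (0.39 ± 0.14, adjusted p = 0.147). With the replicate number as a block HOXB6 was called higher (0.39 ± 0.14, adjusted p = 0.0406), on a background of 13.8% of all genes called in that fit. The pairing behind that block is uncertain. In deviations from the group means, dTAG-13 replicate 1 correlated more with DMSO replicate 2 (0.654) than with DMSO replicate 1 (0.187). HOXB8, at 6.2, 7.73 and 6.11 CPM under dTAG-13 and 5.49, 4.64 and 5.74 CPM in DMSO, was the other gene at an unadjusted p under 0.05 (0.33 ± 0.14, adjusted p = 0.245, and 0.0755 with the block). HOXC10, which DNMT1i raised in wild-type K562, had 0.338, 0.315 and 0.145 CPM under dTAG-13 and 0.488, 0.124 and 0.181 CPM in DMSO and was under the filter. No HOXA or HOXD gene of this clone reached 1 CPM in either group.

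In HT-CTCF cells no HOX gene was called after 1 day of DNMT1i without HaloPROTAC3. Of the 39 members 22 were tested and 0 called, on a background of 1.5% of all genes called (1.34% higher, 0.158% lower), with 4 at an unadjusted p under 0.05 and 0 called by DESeq2. HOXC10 had 3.03, 3.73 and 3.54 CPM under DNMT1i and 1.5, 2.8 and 2.92 CPM in DMSO, which do not overlap but whose difference was not called (log2 fold change 0.48 ± 0.36, adjusted p = 0.551). HOXB2 had 1.93, 1.97 and 1.41 CPM under DNMT1i and 1.29, 0.7 and 1.46 CPM in DMSO and was under the filter. HOXB3, with 16.8, 16.3 and 11.8 CPM under DNMT1i and 10.3, 10.1 and 11.5 CPM in DMSO (0.52 ± 0.17, adjusted p = 0.0922), and HOXA13, with 6.6, 7.86 and 11.3 CPM under DNMT1i and 12.2, 13.6 and 10.8 CPM in DMSO (-0.56 ± 0.19, adjusted p = 0.119), were both called when DNMT1i replicate 3, the shallowest library, was left out. The HOXD genes that left the floor in wild-type HCT116 stayed there, with 1 count of HOXD9 and none of HOXD1, HOXD10 and HOXD13 in the 3 DNMT1i libraries. Time, clone and depth all differ from the wild-type experiment, and the responses were not compared. Levels in DMSO differed too. HOXB9 had 29.6, 32 and 34.2 CPM in HT-CTCF cells, against 87.9, 85.7 and 79.8 CPM in wild-type HCT116. HOXD8 had 2.15, 2.62 and 2.08 CPM, against 10, 10.3 and 8.45 CPM. HOXA11 was higher, with 8.8, 6.65 and 12.3 CPM against 3.98, 4.02 and 4.23 CPM. HOXB7 led the HOXB sum of HT-CTCF cells in DMSO, at 24.2%. These levels were not tested between the experiments.

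With HaloPROTAC3 present, 2 HOXA genes were called lower under DNMT1i, and neither call held under every alternative. Of 22 members tested 0 were called higher and 2 lower, on a background of 1.95% of all genes called (1.08% higher, 0.875% lower). HOXA13, the distal limb and hindgut gene, had 6.35, 7.87 and 6.5 CPM with HaloPROTAC3 and DNMT1i, against 12.8, 11.3 and 10.7 CPM with HaloPROTAC3 and DMSO (log2 fold change -0.71 ± 0.18 SE, adjusted p = 0.0197). HOXA6 had 0.748, 0 and 1.01 CPM with HaloPROTAC3 and DNMT1i, against 2.31, 1.81 and 2.1 CPM with HaloPROTAC3 and DMSO (-1.64 ± 0.48). The libraries of the groups did not overlap in either gene. HOXA13 was not called without HaloPROTAC3 and DNMT1i replicate 1 or 3 or without HaloPROTAC3 and DMSO replicate 1, and HOXA6 was not called under 6 of 10 alternatives, among them the omission of HaloPROTAC3 and DNMT1i replicate 1 or 2 or of any HaloPROTAC3 and DMSO library. HOXA6 had no library past the low-count cutoff with HaloPROTAC3 and DNMT1i, so that its call is a description and no p-value is given. The 8 fibroblast markers summed to 21.52 to 28.92 CPM with HaloPROTAC3 and DNMT1i, against 16.58 to 19.24 CPM with HaloPROTAC3 and DMSO and 16.26 to 20.35 CPM with DNMT1i alone, and their part was not tested.

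HOXB8, a gene of thoracic identity and of myeloid cells, was lower with HaloPROTAC3. As no untagged cells with HaloPROTAC3 were analysed here, the compound and the loss of CTCF cannot be told apart. In DMSO HOXB8 had 31.3, 23.6 and 28.9 CPM with HaloPROTAC3, against 42.5, 46 and 49 CPM without it (log2 fold change -0.65 ± 0.11 SE, adjusted p = 3.5e-05). Under DNMT1i it had 24.9, 25.2 and 23.7 CPM with HaloPROTAC3, against 44.1, 48.4 and 44.1 CPM without it (-0.79 ± 0.11, adjusted p = 3.73e-06). The groups did not overlap in either case, and both calls held under all 11 alternatives. Its neighbors on both sides were not called: HOXB7 had 50.7, 48 and 55.2 CPM with HaloPROTAC3 and 47.4, 43.2 and 49.8 CPM without it in DMSO, and HOXB9 had 31.2, 30.3 and 29.6 CPM with HaloPROTAC3 and 29.6, 32 and 34.2 CPM without it. Under DNMT1i HOXB9 had 33.6, 32.1 and 27.7 CPM with HaloPROTAC3 and 35.1, 41.1 and 35.6 CPM without it, which do not overlap. HOXB7 overlapped there, at 45.6 to 57.8 and 45.9 to 52.7 CPM. Inside the size limit under DNMT1i were HOXB3 (-0.465, adjusted p = 0.0408) and HOXB4 (-0.456, adjusted p = 0.0131). With library size only both HOXB3 and HOXB4 were called lower. HOXB8 was the only member called in DMSO, of 22 tested, with a background of 8.2% of all genes called (3.54% lower). Without HaloPROTAC3 and DMSO replicate 3 HOXA3 was called lower as well, and without DMSO replicate 3 HOXA11, HOXB5 and HOXC6 were called higher. HOXA4 had 0 counts with HaloPROTAC3 and 11 without it in DMSO, at least 6.08-fold lower by the floor, and was under the filter.

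Under DNMT1i HaloPROTAC3 was followed by more calls in HOXA. Of 22 members tested 1 was higher and 4 were lower, on a background of 10.4% of all genes called (5.28% higher, 5.11% lower). HOXA11, which patterns the forearm and uterus, had 10.8, 12.4 and 10.7 CPM with HaloPROTAC3, against 8.25, 5.9 and 6.13 CPM without it (log2 fold change 0.80 ± 0.20 SE, adjusted p = 0.00386), a call that held under all 11 alternatives. HOXA3, a thymus and parathyroid gene, had 3.18, 2.36 and 2.89 CPM with HaloPROTAC3, against 8.39, 4.32 and 5.42 CPM without it (-1.05 ± 0.31, adjusted p = 0.0143). HOXA5 had 4.67, 3.54 and 4.19 CPM with HaloPROTAC3, against 7.84, 7.67 and 6.13 CPM without it (-0.71 ± 0.23, adjusted p = 0.0218). In these 3 genes the groups did not overlap. HOXA6 had 0.748, 0 and 1.01 CPM with HaloPROTAC3, against 2.06, 2.75 and 1.41 CPM without it (-1.60 ± 0.51). Of these libraries 0 with HaloPROTAC3 and 2 without it were past the low-count cutoff. The call of HOXA6 is therefore a description, and no p-value is given. HOXA3, HOXA5 and HOXA6 were not called without HaloPROTAC3 and DNMT1i replicate 2 or without DNMT1i replicate 1, which left HOXB8 as the only gene called lower, and HOXA5 and HOXA6 were not called without DNMT1i replicate 2 or by DESeq2. The interaction of the treatments was called for 0 of 22 members, on a background of 0.252% of all genes called (0.0473% higher, 0.205% lower), with 3 at an unadjusted p under 0.05 (HOXB3, HOXA6 and HOXA5) and 0 called by DESeq2, so that a difference between the response to HaloPROTAC3 under DNMT1i and in DMSO was not shown.

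**Figure D5:**
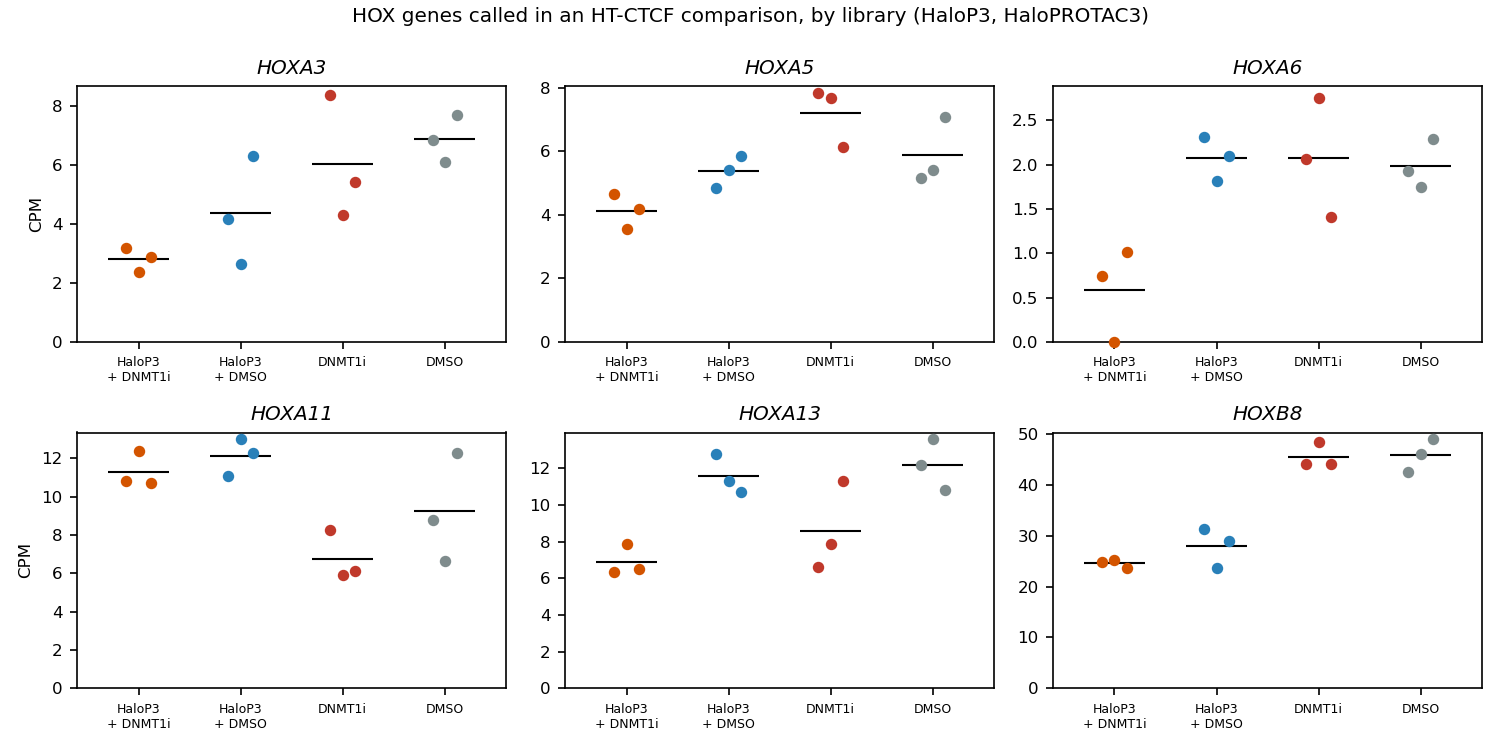
CPM in each library (points, y axis) of HOX genes in the 4 HT-CTCF groups, from HaloPROTAC3 with DNMT1i at the left to DMSO alone at the right, with a line at the mean of 3. HOXB8 is lower in both groups with HaloPROTAC3, at 23.6 to 31.3 CPM against 42.5 to 49 CPM.

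Genes that work with or lie beside the HOX genes were counted from lists. Of 85 homeobox genes outside the clusters 49 were tested in HCT116, and 37 were called higher and 1 lower under DNMT1i, on the background of 23.6% of all genes higher and 15.6% lower, with a median log2 fold change of 1.13 against 0.02 over all genes. MSX1 rose by 2.41 ± 0.08, DLX2 by 2.87 ± 0.15, and BARX1 had 343 counts under DNMT1i and 1 in DMSO (ratio 323, 57.7 to 12800). BARX1 passed the low-count filter through its DNMT1i libraries alone. How many others did was not counted, so that the calls and the median are a description. In K562 23 of the 85 were tested, with 3 higher and 1 lower against 5.72% and 1.44% of all genes (HMX2 3.37 ± 0.53, DLX2 1.40 ± 0.21 and, lower, ONECUT2 -0.65 ± 0.14). HMX2 had 4, 0 and 1 counts in DMSO and passed the filter through its DNMT1i libraries alone. The difference between the lines was called lower in K562 for 21 of 51 and higher for 0 (13.6% and 11% of all genes). These counts are a description for the same reason. In HT-CTCF cells 33 were tested, and under DNMT1i without HaloPROTAC3 5 were higher and 0 lower (1.34% and 0.158% of all genes), among them OTX1 (0.68 ± 0.14) and SIX5 (0.87 ± 0.22).

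Among the TALE cofactors, 3 of 8 tested in HCT116 rose under DNMT1i and 1 fell, a share of 50% beside the 39.2% of all genes called. PBX3 rose by 0.82 ± 0.10 on the log2 scale, and PKNOX2 had 66 counts under DNMT1i and 3 in DMSO (ratio 20.7, 6.8 to 103). PKNOX2 passed the low-count filter through its DNMT1i libraries alone. In K562 0 of 6 were called. MEIS1 separated the lines, with 385 counts in the DMSO libraries of K562 and 2 in those of HCT116 (ratio 190, 52.1 to 1570), while HOXA9 had the opposite pattern.

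Noncoding RNAs and neighbors of the clusters were called in places. HAGLR, the noncoding RNA that starts beside HOXD1 on the opposite strand, had 4.33, 3.06 and 4.27 CPM under DNMT1i against 0.576, 0.643 and 0.789 CPM in DMSO in HCT116 (log2 fold change 2.41 ± 0.25). HOXA-AS3 rose by 0.69 ± 0.26 and HOXA10-AS fell by 0.51 ± 0.11 in the same comparison, in which 2 of 6 noncoding RNAs tested were higher and 2 lower (66.7%, against 39.2% of all genes). Of the 19 genes flanking the clusters tested there, 2 were higher and 3 lower, a share of 26.3% that is below the 39.2% of all genes. TAX1BP1 rose by 0.71 ± 0.09, PRAC1, next to HOXB13, had 57 counts under DNMT1i and 1 in DMSO (ratio 53.7, 9.27 to 2160), and HNRNPA1 fell by 0.60 ± 0.07. PRAC1 passed the low-count filter through its DNMT1i libraries alone. In K562 the flanking gene called was SKAP1, beside HOXB1, with 204, 150 and 161 counts under DNMT1i and 0, 4 and 1 in DMSO. It was the only one of 17 tested, which is 5.88% against 7.15% of all genes, and it passed the filter through its DNMT1i libraries alone. In HT-CTCF cells SNX10, which lies beyond SKAP2 at the edge of HOXA, was lower with HaloPROTAC3 in DMSO (-1.50 ± 0.12) and under DNMT1i (-1.18 ± 0.12), as was SKAP2 in DMSO (-0.68 ± 0.10), among 16 tested. The share called was 12.5% in DMSO, against 8.2% of all genes, and 6.25% under DNMT1i, against 10.4%.

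Regulators of HOX transcription were counted in the same way. Of 13 genes of MLL complexes and partners DPY30 rose in K562 under DNMT1i (0.53 ± 0.09), which is 7.69% of the list against 7.15% of all genes, and 0 of 13 were called in HCT116. Of 24 Polycomb genes and H3K27 demethylases 0 were called in K562, and 6 rose and 2 fell in HCT116, which is 33.3% against 39.2% of all genes (JARID2 0.93 ± 0.07, KDM6A 0.66 ± 0.08 and RNF2 0.54 ± 0.08 among those that rose). Under dTAG-13 in the speckle line 1 of 12 MLL genes was higher, KMT2A (0.41 ± 0.08), and 3 were lower, MEN1 (-0.57 ± 0.08), KMT2B (-0.50 ± 0.12) and DOT1L (-0.49 ± 0.10), against 4.63% of all genes called. In HT-CTCF cells with HaloPROTAC3, DNMT1i was accompanied by lower KMT2A (-0.72 ± 0.14), the 1 of 13 MLL genes called (7.69%, against 1.95% of all genes). CDX2, a ParaHox gene of the intestine and the only 1 of that list tested, was also lower (-0.65 ± 0.18). In wild-type HCT116 CDX2 rose by 0.69 ± 0.11 and CDX1 had 38 counts under DNMT1i and 0 in DMSO, at least 11.9-fold higher.

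As a description of patterns over the 10 groups, the leading gene of each cluster was correlated with 14104 genes on group means of log2(CPM + 0.5). The genes most like HOXA9 were HS6ST2 (Pearson's r = 0.9998), HOXA10 (0.9997) and RGL3 (0.9996), and those most like HOXB9 were LINC02609 (0.9951), ZSCAN30 (0.9926) and MAP2K5 (0.9916). HOXD8 was most like ETV5 (0.9934) and LYPD6B (0.9904). HOXC9, whose level varied least between the lines, was most like DUSP9 (0.9441), ADARB1 (0.9283) and RBM12B (0.927). The points share cell line and experiment, so that for HOXA9, HOXB9 and HOXD8 most of the spread is between lines.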

How the data were processed

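RNA was measured by sequencing in 30 libraries, 3 per group. Per the paper's methods and the notes on processing that came with the deposit, the authors used unique molecular identifiers (UMI-tools 1.1.1), trimmed reads with cutadapt 2.7, aligned them with STAR 2.6.0 to hg38 and counted them with HTSeq, and the deposited values used here are raw counts per gene and, for the wild-type and dTAG libraries, raw counts per exon bin. No source used here states the strand setting. The deposited comparison tables also hold the authors' fold changes and p-values and 18 columns of per-sample counts, which were not used. Counts that HTSeq assigned to no gene, 17.09% to 23.59% of a library, were left out of library sizes. Intervals and floors cover counting error only.

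Differences were fitted in edgeR 4.0.16 (quasi-likelihood test, TMM scaling, filterByExpr) and limma 3.58.1 in R 4.3.3, within each experiment, with Benjamini-Hochberg adjustment over all genes tested, and called at adjusted p below 0.05 with an absolute log2 fold change above 0.5 (0.25 for the speckle depletion). The test was checked on simulated data. Gene symbols came from GENCODE by Ensembl identifier. Values in every library are given for the 3 members highest in untreated wild-type cells in each line and cluster (at least 1 CPM) and for up to 6 called members per direction and comparison, and other lists name up to 3 called members. Members added to these for their position or response elsewhere, and the exon bins, were chosen after their values were seen. The members, lists and tests were chosen with earlier results of these data known. Alternatives were DESeq2 1.42.0, other scaling (library size only was added after seeing the data), no low-count filter, no size limit, a replicate block and the omission of each library. In the speckle experiment deviations from the group means correlated at 0.187, 0.477 and 0.773 over the 3 same-numbered pairs. They correlated at 0.654 between dTAG-13 replicate 1 and DMSO replicate 2, so that pairing by replicate number is uncertain. Some genes counted in the totals are not reported here. CTCF binding and DNA methylation data were not analyzed here. The CTCF core motif and the shorter pattern replaced a looser pattern run first, with more free positions, which matched in the windows of HOXA11 and HOXD10. The choice of pattern was thus made with those matches known.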

Additional observations from a re-analysis of the deposited data

Results flagged for a closer look

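The response to DNMT1i differed between the lines, by the test of the difference itself (K562 response minus HCT116 response on the log2 scale, edgeR with Benjamini-Hochberg adjustment), for 6 HOX genes, of which 5 are given here. The difference was 1.91 for HOXC10 and 1.34 for HOXC6, which responded more in K562. It was -3.51 for HOXB2 and -0.94 for HOXB3, which responded more in HCT116. The fitted difference was -8.54 for HOXD13 (0 counts under DNMT1i and 1 in DMSO in K562), where the K562 counts set the size of the fitted value and no bound can be read from it. HOXD13 passed the low-count filter through its HCT116 DNMT1i libraries alone, so that its call is a description. In no group of this experiment were there 4 or more libraries, so single libraries were not tested for standing apart. Replicates were set against counting error in pairs, as chi-square per degree of freedom over genes. K562 DMSO replicate 3 differed from replicates 1 and 2 by 31.4 and 29.7, while replicates 1 and 2 differed by 2.48. The 4 genes called higher under DNMT1i in K562 were also called without that library.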

How the results depend on the processing

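Of 739 values of single members under the alternatives, 698 kept their direction and side of the threshold, 41 were no longer called and 0 reversed, and of 264 counts of called members 234 stayed within 1.5 times. The cause was not tested for the others. In K562 the 1 gene called lower under DNMT1i (HOXC4) became 0 with library size only, without the low-count filter, with the replicate block and by DESeq2, and was 0 to 1 when each library was omitted. In HCT116 the 7 lower became 3 with library size only and 12 with no size limit. In the speckle depletion the 0 higher became 1 (HOXB6) with the replicate block. In HT-CTCF cells DNMT1i without HaloPROTAC3 had 0 higher and 0 lower, and each was 0 to 1 when a library was omitted (HOXB3 and HOXA13, without DNMT1i replicate 3). With HaloPROTAC3 the 2 lower became 1 with the replicate block and by DESeq2, and 0 to 1 when a library was omitted, with 0 without replicate 1 of either group. For HaloPROTAC3 in DMSO the 0 higher were 0 to 3 (3 without DMSO replicate 3), and the 1 lower became 2 without the low-count filter (HOXA4) and was 1 to 2 when a library was omitted (2 without HaloPROTAC3 and DMSO replicate 3). For HaloPROTAC3 under DNMT1i the 4 lower became 2 by DESeq2 and were 1 to 5 when a library was omitted, with 1 without HaloPROTAC3 and DNMT1i replicate 2 or without DNMT1i replicate 1 and 2 without DNMT1i replicate 2. For the difference between the lines the 4 lower became 8 by DESeq2. Outside the speckle experiment, where the pairing is uncertain as given above, the replicate numbers did not pair the libraries. Same-numbered libraries correlated at -0.477 to 0.505 in K562, -0.362 to 0.257 in HCT116 and -0.316 to 0.172 in HT-CTCF cells. The block changed no count of members by over 1.5 times beside those given above. With library size only, the median log2 fold change of all genes moved to 0.13 in HCT116 under DNMT1i and to -0.10 for HaloPROTAC3 under DNMT1i. In the shallower HT-CTCF libraries 3 counts stood for up to 0.707 CPM, and levels below that were not detectable there.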
